A study of Mus musculus with 24 samples.

Results

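The 9 transcription factors described here, Spic, Spi1, Irf8, Tfec, Zeb2, Cebpa, Cebpb, Bhlhe40 and Bhlhe41, belong to the regulators that set up and hold the macrophage lineage. They were taken by symbol from a list of names, and each matched exactly 1 of the 48820 entries in every count table. RNA-seq was performed on 24 mouse libraries in 8 groups of 3 mice, all C57BL/6. Macrophages of the liver, gated as CD45+Ly6C-F4/80+CD64+, came from mice aged 8 to 10 weeks in 4 groups, namely HSC-KO, control, Smad4 cKO (Smad4FF cKO in the labels) and Smad4FF. In HSC-KO mice (Gdf2 fl/fl and Bmp10 fl/fl, with Lrat-Cre), Cre driven by Lrat removes the ligands GDF2, also known as BMP9, and BMP10 from hepatic stellate cells, so the macrophages themselves carry intact receptors and SMADs. In Smad4 cKO mice (Smad4 fl/fl Vav1-Cre), Cre driven by Vav1 removes the common SMAD from blood-derived cells, and the Smad4FF controls carry the floxed allele without Cre. CD45-CD31+ liver endothelial cells (ECs) came from HSC-KO and control mice of the same age, and whole liver tissue from HSC-KO and control mice aged 12 weeks. Library totals ranged from 60911527 to 110879155 counts. The labels tie 3 of the mice to a library of each sorted cell type.

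The targeted genes followed the labels. Smad4 was at 40.5, 35.7 and 43.3 CPM (counts scaled to a common library total) in Smad4FF macrophages and at 17.2, 12.7 and 15.4 CPM in cKO macrophages (log2 fold change -1.39, SE 0.16), whereas its group means in control and HSC-KO macrophages were 47.5 and 46.5 CPM. In whole liver, Gdf2 was at 22.2, 10.9 and 26.5 CPM in controls and 4.37, 2.40 and 2.99 CPM in HSC-KO mice, and the Bmp10 mean fell from 3.15 to 0.18 CPM. The sorted macrophages carried all 6 general macrophage markers checked (C1qa, C1qb, C1qc, Csf1r, Adgre1 and Fcgr1), with summed levels of 23503 to 24681 CPM in controls, 17329 to 20361 CPM in HSC-KO, 24457 to 28241 CPM in Smad4FF and 18630 to 22483 CPM in cKO macrophages. The sums of both mutants lay below those of their controls, Adgre1 and Csf1r were called lower in HSC-KO and Adgre1 in cKO macrophages, and the part of this in the member values was not tested. The summed level of 5 Kupffer cell (KC) markers was 28309 to 30524 CPM in control against 42.2 to 218 CPM in HSC-KO macrophages, and 23598 to 30092 CPM in Smad4FF and 669 to 787 CPM in cKO macrophages, so the mutant cells carried macrophage markers but few KC markers.

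Macrophage identity is written by factors that act in layers. PU.1, the product of Spi1, opens myeloid enhancers, and C/EBP and IRF proteins bind beside it. Factors such as SPIC, TFEC and ZEB2 act later, in macrophages settled in a tissue, while the paired repressors BHLHE40 and BHLHE41 act on E-boxes in clock, cell cycle and macrophage identity genes. GDF2 and BMP10 signal through ALK1, SMAD1/5 and SMAD4. The comparisons show how these factors differ after loss of the ligands from stellate cells or of SMAD4 from blood-derived cells. The paper proposes that macrophages derived from monocytes replaced the embryonic KCs in HSC-KO livers, and calls the Smad4 cKO cells monocyte-derived KCs. A change within a cell and a change of the cells present cannot be told apart here.

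The members whose sequences are shown are Bhlhe41, which rose in both mutant macrophages, Tfec, which fell in all 4 comparisons, and Cebpa, which fell in ECs. The windows are from RefSeq on GRCm38.p6 and run 5′ to 3′ up to the base before the RefSeq start site, and 7 of the 9 members had such a window. For Bhlhe41 only the 112 bases outside the exons of GENCODE vM21 are printed (chr6:145865559-145865670, minus strand), for Tfec 250 bases (chr6:16898442-16898691, minus strand) and for Cebpa 250 bases (chr7:35119043-35119292, plus strand). Capitals mark matches to 3 motifs searched on both strands, none of which overlapped another: the E-box CACGTG, the ETS core GGAAGT and the GC-rich BMP-SMAD element GGCGCC.
Bhlhe41: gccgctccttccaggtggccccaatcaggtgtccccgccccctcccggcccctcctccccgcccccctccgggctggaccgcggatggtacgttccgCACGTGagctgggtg
Tfec: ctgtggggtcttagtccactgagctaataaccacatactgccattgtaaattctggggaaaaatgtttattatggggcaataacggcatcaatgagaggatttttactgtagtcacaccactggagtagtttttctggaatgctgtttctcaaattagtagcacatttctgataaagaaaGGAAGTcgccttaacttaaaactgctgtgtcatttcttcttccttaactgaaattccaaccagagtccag
Cebpa: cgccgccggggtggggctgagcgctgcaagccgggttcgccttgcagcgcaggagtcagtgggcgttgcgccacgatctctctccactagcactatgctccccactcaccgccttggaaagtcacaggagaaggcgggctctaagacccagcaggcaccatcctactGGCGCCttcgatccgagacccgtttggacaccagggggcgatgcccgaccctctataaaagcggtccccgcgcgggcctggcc
The E-box of Bhlhe41 lay 153 to 148 bases before the start, the ETS core of Tfec 70 to 65 bases and the BMP-SMAD element of Cebpa 83 to 78 bases before it. Among the other members, Spic held the ETS core on its opposite strand (ACTTCC, 48 to 43 bases before the start), and the windows of Irf8, Zeb2 and Cebpb held none of these letters. Of all 32851 windows of 250 bases in the RefSeq set, 6.02% held the E-box, 19.7% the ETS core and 9.59% the BMP-SMAD element, so a match in a window is a description and not a binding site.

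In liver macrophages of HSC-KO mice, Bhlhe41 rose 95.2-fold, Tfec fell 2.21-fold and Spi1 fell 1.51-fold. These 3 of 9 members passed an adjusted p below 0.05, beside 19.2% of the 16337 genes tested, and Bhlhe41 and Tfec also passed an absolute log2 fold change of 1, beside 11.7% of genes. The median log2 fold change of the 9 members was 0.07, and that of all genes tested was 0.04. All p values are from edgeR's quasi-likelihood test with Benjamini-Hochberg adjustment over all genes, levels are CPM scaled with TMM factors over the 24 libraries, and n = 3 mice per group throughout.

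In macrophages of Smad4 cKO mice, the same 3 symbols were called in the same directions: Bhlhe41 rose 26.7-fold, Spi1 fell 1.72-fold and Tfec fell 1.67-fold. They were 3 of 9 members, beside 7.74% of the 17517 genes tested, and only Bhlhe41 passed the absolute log2 fold change of 1, beside 5.43% of genes. The median log2 fold change of the 9 members was -0.01, and that of all genes was 0.04.

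**Figure D1:**
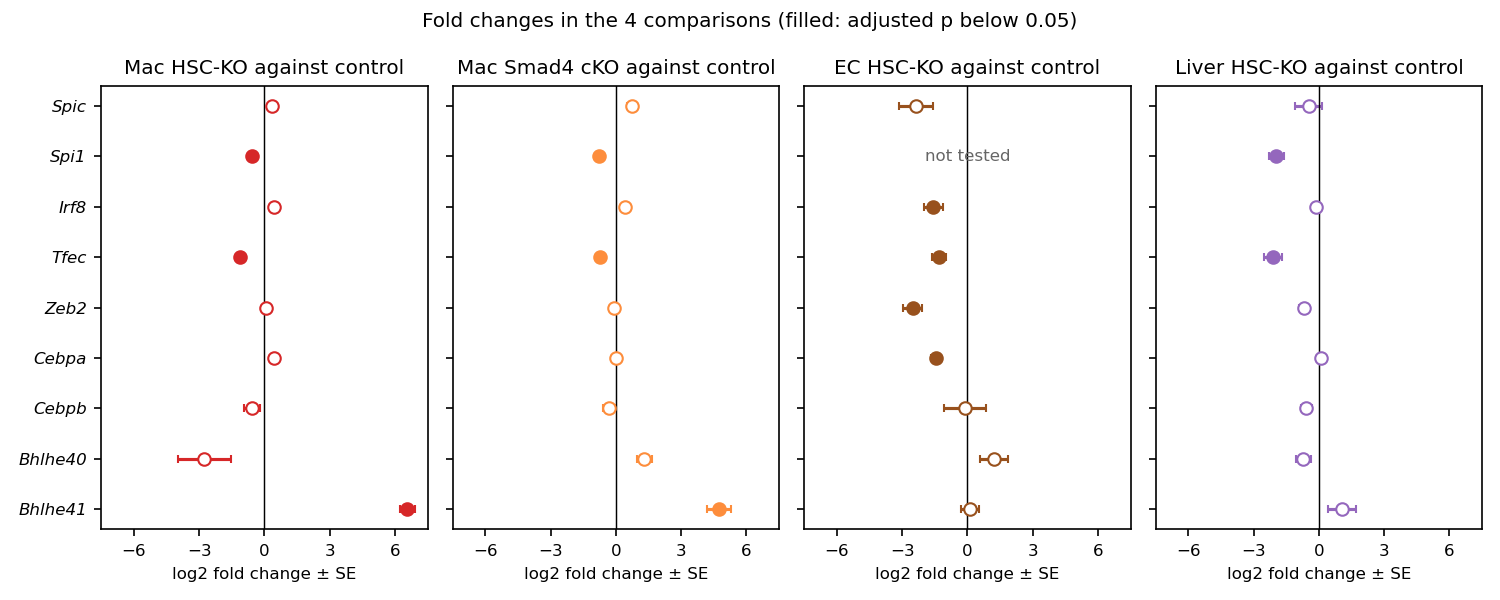
Log2 fold change with its SE (x axis) of the 9 transcription factors (y axis) in each of the 4 comparisons, with filled circles for an adjusted p below 0.05 and open circles for the others; Spi1 was not tested in ECs. Bhlhe41 stands far to the right in both macrophage panels (6.57 and 4.74) and near 0 in ECs (0.13), and Tfec lies to the left in all 4.

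PU.1, encoded by Spi1 (chr2:91082390-91115756, plus strand), is the ETS factor that the myeloid lineage cannot be made without. Its level was 76.5, 81.4 and 80.5 CPM in control macrophages and 58.2, 48.6 and 47.7 CPM in HSC-KO macrophages. All 3 HSC-KO libraries lay below all 3 control libraries (log2 fold change -0.59, SE 0.12, adjusted p = 0.0125). In the Smad4 experiment it was at 46.3, 59.1 and 59.2 CPM in Smad4FF and 31.8, 34.2 and 28.6 CPM in cKO macrophages. Again the groups did not overlap (log2 fold change -0.78, SE 0.14, adjusted p = 0.016), and the difference between the 2 fold changes was 0.24 (SE 0.18, adjusted p = 0.58). Smad4FF macrophages held 69.0% of the Spi1 level of the controls of the HSC-KO mice, a difference between experiments that was not tested. The call in HSC-KO mice was just lost without control replicate 2 (adjusted p = 0.0505) or without HSC-KO replicate 3 (0.0537). The call in Smad4 cKO mice was lost without cKO replicate 1 (0.0740) or 3 (0.0567), without Smad4FF replicate 2 (0.0587) or 3 (0.0832), and with the replicate numbers as a block. The log2 fold change lay between -0.91 and -0.50 in every alternative.

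Spic (chr10:88674772-88685015, minus strand) encodes the PU.1 relative that red pulp macrophages and KCs use, and haem raises it. Control macrophages held 113, 128 and 162 CPM and HSC-KO macrophages 151, 163 and 190 CPM. The ranges overlapped and the difference did not pass (log2 fold change 0.36, SE 0.17, adjusted p = 0.20). Smad4FF macrophages held 190, 343 and 223 CPM and cKO macrophages 457, 417 and 381 CPM. Here every cKO library was above every Smad4FF library, with a log2 fold change of 0.75 (SE 0.22, adjusted p = 0.094). Without Smad4FF replicate 2, the highest of its group, the log2 fold change was 1.02 and passed (adjusted p = 0.0160), and it also passed with DESeq2 (0.73, adjusted p = 0.0306) and with library size alone (0.91, adjusted p = 0.0421). That replicate also had the least EC marker RNA of its group, at 792 CPM against 2444 and 2520 CPM, and the part of this in the Spic value was not tested. In both mutants Spic was thus at 151 CPM or more in libraries whose KC markers summed to at most 787 CPM.

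Irf8 (chr8:120736358-120756694, plus strand), the PU.1 partner of monocytes and dendritic cells, did not pass in either mutant, although its groups stood apart. Its level was 416, 322 and 330 CPM in control against 477, 469 and 483 CPM in HSC-KO macrophages. The groups did not overlap, yet the difference of 0.46 (log2, SE 0.14) stayed just above the threshold (adjusted p = 0.055). It passed with DESeq2 (0.0181), with library size alone (0.0436), with the stricter count filter (0.0417), with all 12 macrophage libraries in 1 fit (0.0429) and without control replicate 1 (0.0309). Smad4FF macrophages held 421, 569 and 507 CPM and cKO macrophages 661, 583 and 741 CPM (log2 fold change 0.42, SE 0.15, adjusted p = 0.16). Markers of plasmacytoid dendritic cells, which carry much IRF8, summed to 0.73 to 0.86 CPM in control against 5.98 to 7.29 CPM in HSC-KO macrophages, with Siglech as the 1 gene of 3 tested that rose. Conventional dendritic cell markers summed to 6.78 to 11.5 and 12.5 to 31.3 CPM in the same groups, with Xcr1 as the 1 gene of 5 that rose. In Smad4FF and cKO macrophages the plasmacytoid list summed to 1.15 to 1.63 and 2.28 to 3.65 CPM, with 1 of 4 genes tested called higher, and the conventional list to 24.7 to 27.3 and 12.3 to 20.2 CPM, with 1 of 5 called lower. The part of either list in the Irf8 values was not tested.

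Tfec (chr6:16833373-16898441, minus strand), a bHLH zipper factor of the MiT family with expression largely in macrophages, fell in both mutants. It was at 43.4, 38.6 and 42.7 CPM in control against 19.6, 16.4 and 19.1 CPM in HSC-KO macrophages. Every control library was far above every HSC-KO library (log2 fold change -1.14, SE 0.14, adjusted p = 0.00148). Smad4FF macrophages held 33.9, 36.4 and 31.2 CPM and cKO macrophages 17.8, 19.2 and 23.03 CPM. These groups did not overlap either (log2 fold change -0.74, SE 0.14, adjusted p = 0.021). The HSC-KO call was kept in all 15 alternatives, at a log2 fold change between -1.21 and -1.05. The Smad4 call was lost without cKO replicate 1 (adjusted p = 0.0927), without Smad4FF replicate 1 (0.0660), 2 (0.0692) or 3 (0.0643), and with the replicate numbers as a block. The difference between the 2 fold changes was -0.35 (SE 0.20, adjusted p = 0.41). Tfec is also made by ECs, whose RNA was present in the Smad4 libraries, and subtracting the amount it could supply changed the ratio of the Smad4FF to the cKO mean from 1.69 to 1.83 (a step chosen after seeing the data).

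Zeb2 (chr2:44983632-45117395, minus strand), a zinc finger E-box repressor that binds SMADs and is known to hold tissue macrophages in their identity, passed in neither mutant. Control macrophages held 135, 154 and 157 CPM, and its level was 106, 185 and 166 CPM in HSC-KO, 146, 137 and 131 CPM in Smad4FF and 135, 111 and 143 CPM in cKO macrophages. All 4 ranges overlapped with their neighbours. The log2 fold change was 0.07 (SE 0.20, adjusted p = 0.86) in HSC-KO mice and -0.07 (SE 0.13, adjusted p = 0.81) in Smad4 cKO mice, and its sign changed in 4 of 15 and 2 of 14 alternatives. The antisense gene Zeb2os shares exon sequence with it and had 558 to 1714 counts in control and HSC-KO macrophages; the use of strand in counting is not given in the sources used here, so reads of the 2 genes cannot be told apart.

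The C/EBP factors, bZIP proteins of myeloid cells and hepatocytes, passed the test in neither mutant. Cebpa (chr7:35119293-35121928, plus strand) was at 192, 156 and 140 CPM in control against 246, 201 and 191 CPM in HSC-KO macrophages, with overlapping ranges (log2 fold change 0.42, SE 0.16, adjusted p = 0.10). It passed with the Xist level as covariate (adjusted p = 0.0311) and with the replicate numbers as a block. In Smad4FF and cKO macrophages it ranged from 90.4 to 101 and from 72.1 to 112 CPM. Cebpb (chr2:167688915-167690418, plus strand), the member tied to inflammation, ranged from 5.51 to 13.9 CPM in control, 5.10 to 8.60 CPM in HSC-KO, 3.27 to 5.62 CPM in Smad4FF and 2.53 to 4.75 CPM in cKO macrophages. Its log2 fold changes were -0.57 (SE 0.35, adjusted p = 0.30) and -0.30 (SE 0.32, adjusted p = 0.67). Both genes overlap an antisense gene whose reads cannot be told apart from theirs. Gm45091, beside Cebpa, had 14 to 31 counts in control and HSC-KO macrophages, whereas Tmem189, beside Cebpb, had 3101 to 8097 counts against 308 to 1116 counts of Cebpb itself.

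Bhlhe41 (chr6:145858243-145865558, minus strand), also called DEC2, represses transcription from E-boxes and takes part in the clock. It was close to silent in control macrophages, at 1.75, 1.53 and 0.876 CPM, and was at 146, 157 and 88.4 CPM in HSC-KO macrophages. The log2 fold change of 6.57 (SE 0.34, adjusted p = 4.93e-05) was kept between 6.35 and 6.81 and past the threshold in all 15 alternatives. Smad4FF macrophages held 0.2495, 1.21 and 1.35 CPM and cKO macrophages 21.6, 26.7 and 26.1 CPM. The log2 fold change of 4.74 (SE 0.56, adjusted p = 0.00283) also passed in all 14 alternatives. The difference between the 2 fold changes was 1.88 (SE 0.62, unadjusted p = 0.0106, adjusted p = 0.14), and it passed with DESeq2 (adjusted p = 0.0395) or without Smad4FF replicate 1 (0.0182). Reads of the antisense gene Gm43909 were at most 3 counts in these 12 libraries.

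Bhlhe40 (chr6:108660629-108666925, plus strand), is the gene of its paralogue DEC1. Control macrophages held 4.74, 4.65 and 3.99 CPM (384, 373 and 223 counts), and HSC-KO macrophages 0.0232, 0.0984 and 1.75 CPM (2, 9 and 161 counts). All HSC-KO libraries were below all controls, but their own spread was wide, and the log2 fold change of -2.77 (SE 1.22) did not pass (adjusted p = 0.16). With the Xist level as covariate it was -4.84 (adjusted p = 0.13), and without HSC-KO replicate 3 it was -6.14 (adjusted p = 0.00173). That replicate was also the highest of its group in summed KC markers (218 CPM against 42.2 and 77.6), EC markers (95.8 against 31.1 and 43.1) and stellate cell markers (113 against 44.8 and 51.6). By summed markers, ECs could supply 0.108 of its 1.75 CPM, against 0.0484 CPM beside the 0.0232 CPM of replicate 1 and 0.0350 CPM beside the 0.0984 CPM of replicate 2. By the median ratio over markers, the supplied levels were 0.0694, 0.0109 and 0.0120 CPM in the same order. The 2 counts of replicate 1 are below the 3 counts that a count of 0 allows. The part of the other cells was not tested. In the Smad4 experiment the order was the opposite, with 2.44, 2.75 and 4.91 CPM in Smad4FF and 6.71, 6.70 and 11.4 CPM in cKO macrophages (log2 fold change 1.31, SE 0.35, adjusted p = 0.065). It passed with DESeq2 (adjusted p = 0.00249), with library size alone (0.0416) and with the replicate numbers as a block. The difference between the 2 fold changes was -4.03 (SE 1.34, unadjusted p = 0.0111, adjusted p = 0.15), and it was -7.40 and passed without HSC-KO replicate 3 (adjusted p = 0.000332).

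Between the 2 experiments, 0 of the 9 members passed the test of the difference in fold change with edgeR, beside 2.94% of the 18149 genes tested. An unadjusted p below 0.05 was reached by 2 members, Bhlhe40 and Bhlhe41, and DESeq2 called 1, Bhlhe41. Bhlhe41 made up 18.01 to 26.996% of the summed CPM of the Bhlhe pair in control macrophages and 98.1 to 100% in HSC-KO macrophages. In Smad4FF and cKO macrophages the share was 9.27 to 30.6% and 69.6 to 79.9%, and in whole liver it was at most 1.75%. The mean of the summed pair was 5.85 CPM (SD 0.86) in control, 131 CPM (SD 36.0) in HSC-KO, 4.30 CPM (SD 1.81) in Smad4FF and 33.1 CPM (SD 4.62) in cKO macrophages, and in the cKO the Bhlhe40 mean was also higher, at 8.28 against 3.37 CPM in Smad4FF macrophages.

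**Figure D2:**
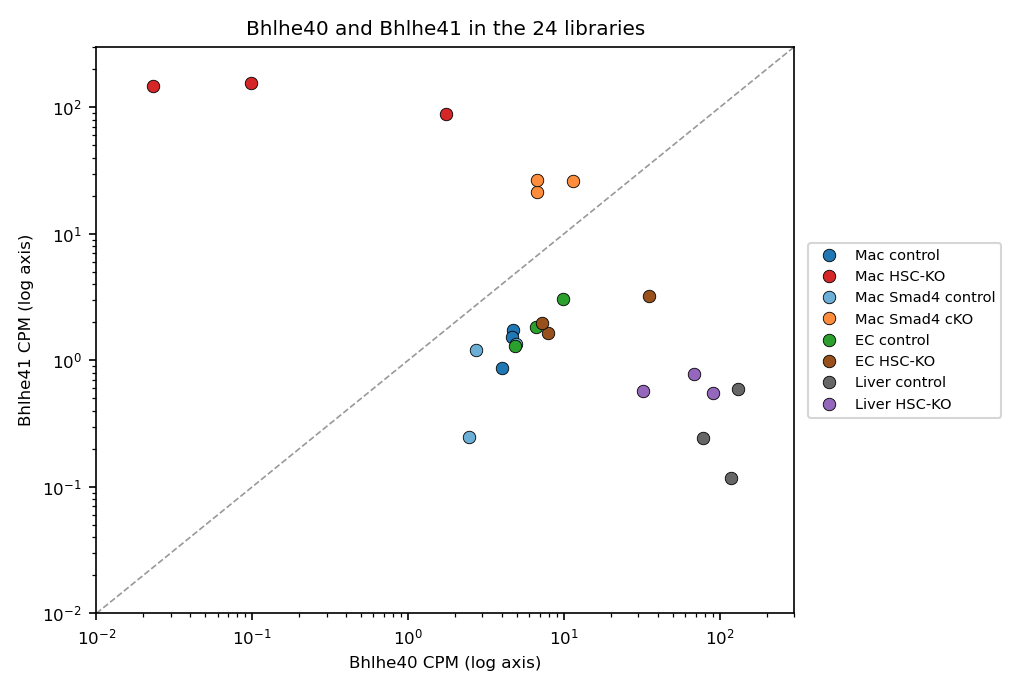
Bhlhe40 (x axis) against Bhlhe41 (y axis), both in CPM on log axes, with 1 point per library, 1 colour per group and a dashed line at equal levels. The 3 HSC-KO macrophage libraries and the 3 Smad4 cKO libraries are the only points above the line, and the HSC-KO libraries reach from 1.75 down to 0.0232 CPM of Bhlhe40.

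Per kilobase of exon, the scale on which genes can be compared, control macrophages held most Cebpa (mean 61.7 CPM per kb), then Irf8 (50.4), Spic (34.95) and Spi1 (29.5), and least Bhlhe40 (0.948) and Bhlhe41 (0.206). In HSC-KO macrophages Bhlhe41 was the fourth at 19.4 CPM per kb, beside Spi1 at 19.1, and Tfec was the eighth at 3.28. In cKO macrophages Spic was the first at 109 CPM per kb and Bhlhe41 the sixth at 3.69.

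Over the 12 macrophage libraries, the 3 genes whose log2 CPM was most like that of Tfec, among 8183 genes whose mean log2 CPM reached 3, were Tnfaip2 (Pearson r = 0.97), Folr2 (0.96) and Erp44 (0.96). The most like Bhlhe41 were Tmx4 (0.98) and Eef2k (0.98). Folr2, a folate receptor of resident macrophages, had group means of 2002, 80.2, 1847 and 71.1 CPM in control, HSC-KO, Smad4FF and cKO macrophages, and Eef2k, a kinase of translation elongation factor 2, had 11.6, 49.6, 8.84 and 31.1 CPM. The libraries share 2 genotype contrasts, and r is given as a description.

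In ECs of HSC-KO mice 4 members fell and none rose. Zeb2 fell 5.71-fold, Irf8 2.96-fold, Cebpa 2.76-fold and Tfec 2.47-fold. They were 4 of the 8 members that passed the filter on low counts, beside 20.1% of the 16053 genes tested, and all 4 also passed the absolute log2 fold change of 1, beside 13.7% of genes. The level that carried-over macrophage RNA would give is set beside each below.

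Zeb2 was at 56.9, 75.3 and 40.7 CPM in control ECs and 16.7, 8.96 and 5.06 CPM in HSC-KO ECs. The groups were far apart (log2 fold change -2.51, SE 0.43, adjusted p = 0.00642), and the call held in all 13 alternatives. Cebpa was at 25.1, 17.7 and 15.5 CPM in control against 8.53, 6.32 and 6.48 CPM in HSC-KO ECs. Its call, too, held in all 13 alternatives (log2 fold change -1.46, SE 0.22, adjusted p = 0.00351). Irf8 was at 53.8, 64.5 and 120 CPM in control against 21.5, 43.3 and 16.4 CPM in HSC-KO ECs (log2 fold change -1.57, SE 0.43, adjusted p = 0.0387). Tfec was at 23.3, 25.02 and 24.5 CPM in control against 15.9, 8.25 and 5.66 CPM in HSC-KO ECs (log2 fold change -1.31, SE 0.34, adjusted p = 0.0326). No HSC-KO library of either gene reached a control library, but both calls were lost with library size alone (adjusted p = 0.0511 and 0.0512). Irf8 was also lost without HSC-KO replicate 1 (0.0896) or 3 (0.119), without control replicate 2 (0.0649) or 3 (0.114), and with the replicate numbers as a block. Tfec was also lost without HSC-KO replicate 2 (0.114) or 3 (0.0672), without any of the 3 controls (0.0770 to 0.0838), and with the Xist level as covariate (0.0627).

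The other members were low in ECs or did not differ. Spic had 22, 27 and 47 counts in control and 4, 12 and 4 in HSC-KO ECs (log2 fold change -2.37, SE 0.80, adjusted p = 0.077), and Spi1 had 24, 0 and 0 and then 0, 0 and 8 counts and was not tested. A count of 0 allows up to 3 counts, or 0.028 to 0.041 CPM in the EC libraries with counting error alone. Bhlhe40 ranged from 4.84 to 9.91 CPM in control and from 7.19 to 35.2 CPM in HSC-KO ECs (adjusted p = 0.23, and 0.0241 with Xist as covariate), and Bhlhe41 from 1.30 to 3.04 and from 1.66 to 3.24 CPM (log2 fold change 0.13, SE 0.42, adjusted p = 0.87). Cebpb ranged from 0.136 to 2.07 CPM over both groups (adjusted p = 0.96).

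Macrophage RNA was scarce in the EC libraries. The 6 macrophage markers summed to 37.5 to 52.1 CPM in control against 3.15 to 4.14 CPM in HSC-KO ECs, and 4 of the 5 tested fell. These sums are 0.156 to 0.216% and 0.0169 to 0.0222% of their sum in sorted macrophages of the same genotype. Of the KC markers, 4 of 5 were at 3 counts or fewer in every HSC-KO EC library. At these shares, carried-over macrophage RNA would supply 0.82% of the Irf8 mean in control ECs, 1.53% of Cebpa, 0.47% of Zeb2 and 0.31% of Tfec. Of Spic it would supply 64.1% (0.245 of 0.383 CPM) and of Spi1 171% (0.145 of 0.0847 CPM). Spi1 and Spic were thus near the level that such RNA gives, and for each of the other 4 it gives under 2% of the level. In HSC-KO ECs the supplied part was at most 0.58% for Irf8, Tfec, Zeb2 and Cebpa.

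**Figure D3:**
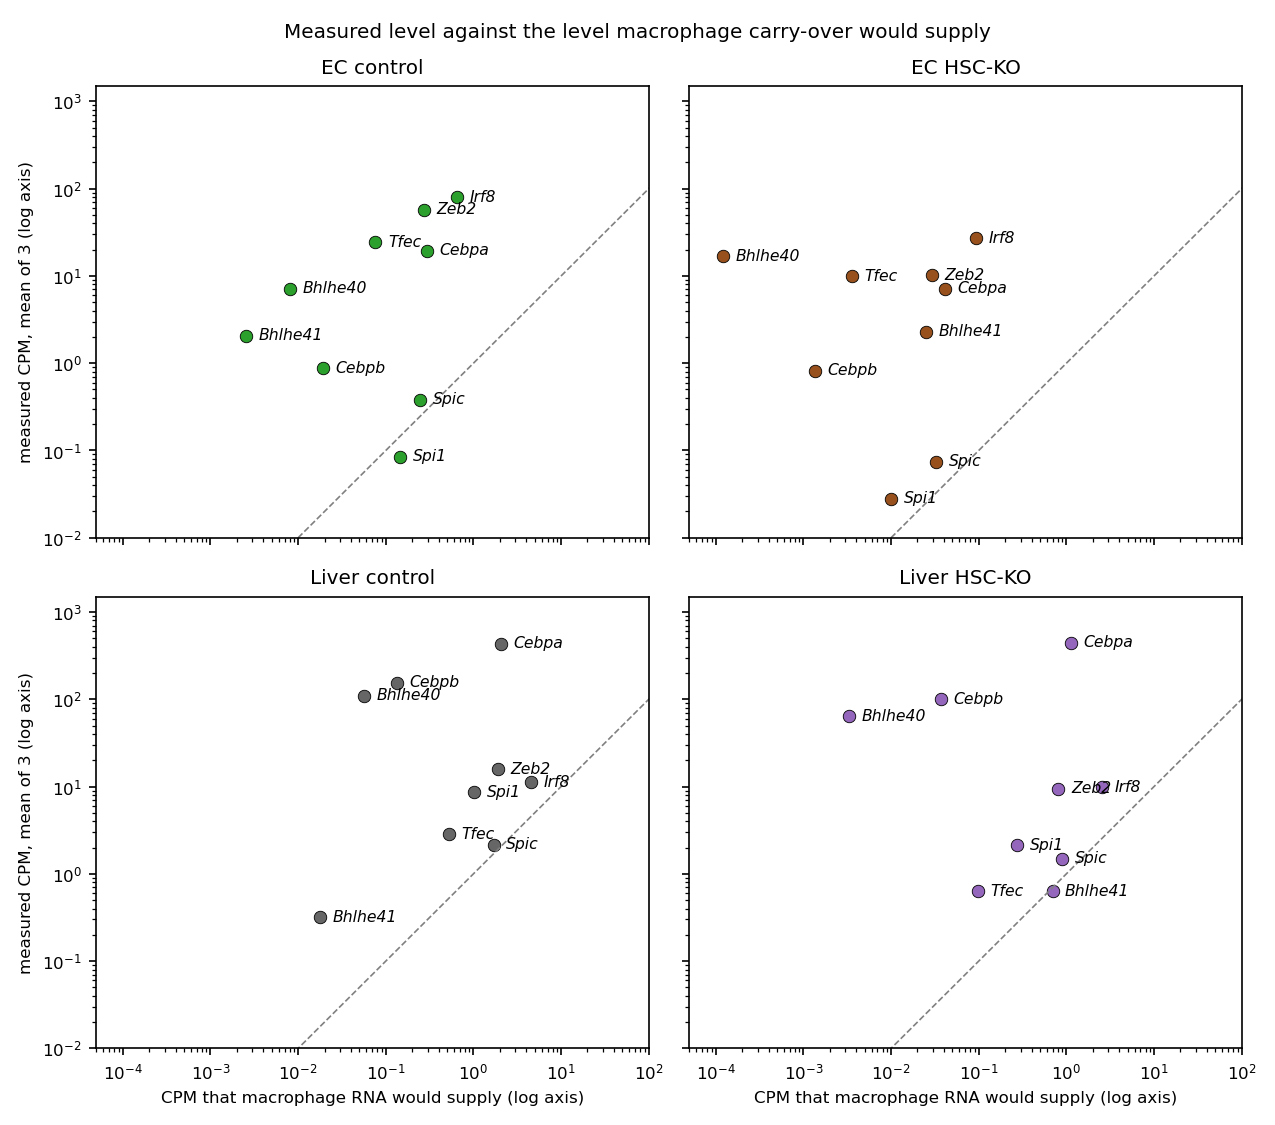
Mean measured CPM of each factor (y axis) against the CPM that macrophage RNA in the library would supply (x axis), both on log axes, in ECs and whole liver of control and HSC-KO mice; the dashed line marks equal values. Spic and Spi1 lie near the line in ECs, Bhlhe41 (0.633 measured, 0.696 supplied) and Spic in HSC-KO liver, and Cebpa, Cebpb and Bhlhe40 far above it in whole liver.

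Control ECs held 58.3% of the Tfec level of control macrophages, 38.7% of Zeb2, 22.3% of Irf8 and 11.95% of Cebpa, against 0.285% of Spic and 0.107% of Spi1. The order of the 8 groups therefore differed between members. Spic, Spi1, Irf8 and Zeb2 had the 4 macrophage groups on top. Cebpa, Cebpb and Bhlhe40 had both liver groups on top, and Tfec in control ECs (mean 24.3 CPM, SD 0.91) was above HSC-KO and cKO macrophages (18.4 and 20.02 CPM) with no overlap.

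**Figure D4:**
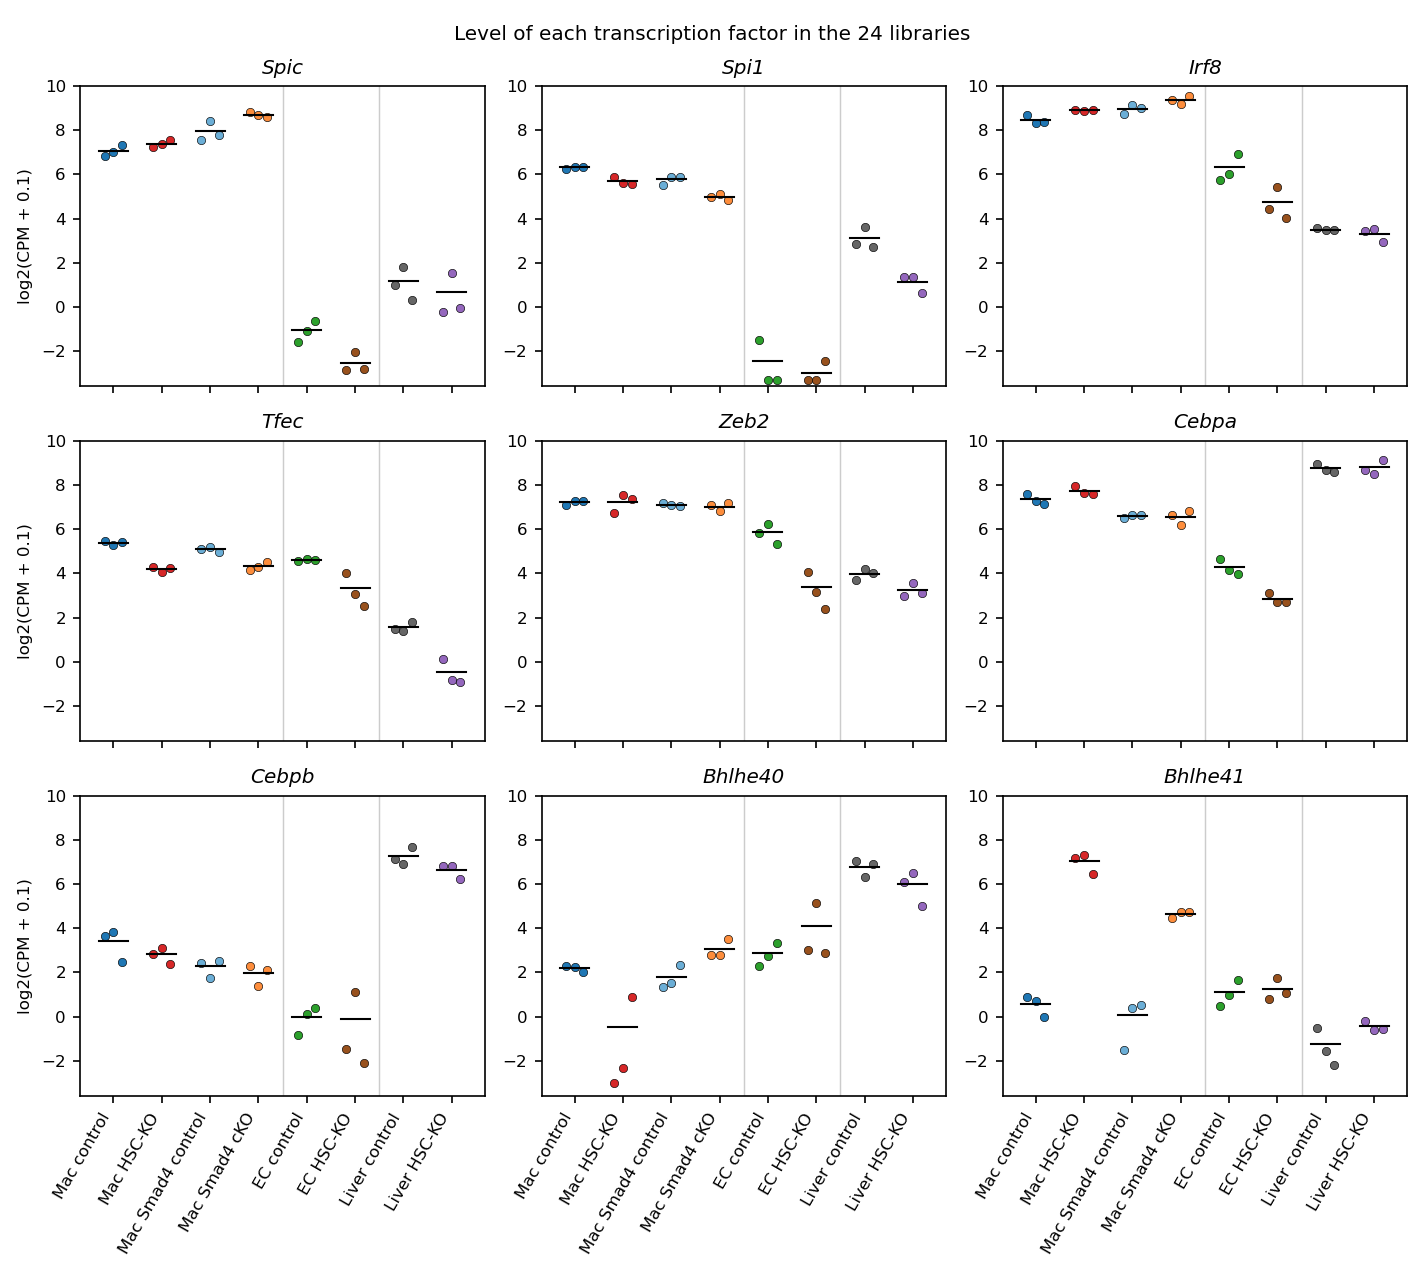
Level of each factor as log2(CPM + 0.1) (y axis) in the 24 libraries by group (x axis), with 1 point per library and a bar at the group mean; Mac is macrophages. Spic and Spi1 drop from 31.5 CPM or more in every macrophage group mean to group means under 9 CPM outside macrophages. Tfec in control ECs (mean 24.3 CPM) lies among the macrophage group means, while Zeb2 in control ECs (57.6 CPM) lies below them.

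The response of the same factors to the loss of the ligands was compared between ECs and macrophages in 1 fit of 12 libraries, a comparison added after seeing the data. The difference in log2 fold change, ECs minus macrophages, was -6.45 for Bhlhe41 (SE 0.55, adjusted p = 3.73e-05), -2.78 for Spic (SE 0.55, adjusted p = 0.00616), -2.58 for Zeb2 (SE 0.53, adjusted p = 0.00755), -2.03 for Irf8 (SE 0.51, adjusted p = 0.0202) and -1.90 for Cebpa (SE 0.29, adjusted p = 0.00136). These were 5 of 9 members, beside 15.4% of 18213 genes. Bhlhe41 rose in macrophages and did not pass in ECs, while Zeb2 and Cebpa fell in ECs and did not pass in macrophages. For Tfec, which fell in both, the difference was -0.17 (SE 0.41, adjusted p = 0.87). The Spic value rests on the few EC counts given above, and the same mice behind some libraries of both cell types were not modelled.

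In whole liver of HSC-KO mice Spi1 fell 3.90-fold and Tfec 4.34-fold. These 2 of 9 members were called, beside 2.83% of the 17118 genes tested, and both passed the absolute log2 fold change of 1, beside 2.48%. Spi1 was at 7.02, 12.2 and 6.41 CPM in control against 2.42, 2.46 and 1.46 CPM in HSC-KO liver (log2 fold change -1.96, SE 0.34, adjusted p = 0.0284). Tfec was at 2.65, 2.54 and 3.35 CPM in control against 0.989, 0.471 and 0.427 CPM in HSC-KO liver (log2 fold change -2.12, SE 0.41, adjusted p = 0.0408). The groups of both genes were clearly apart, but in bulk tissue fewer cells of a type and less RNA per cell cannot be told apart. Spi1 was lost without any 1 library but HSC-KO replicate 3 (adjusted p of 0.0622 to 0.101). Tfec was lost without any but HSC-KO replicate 1 (0.0680 to 0.160), with all genes that had a count (0.0553), with the Xist covariate (0.0775) and with the replicate numbers as a block.

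Macrophage markers fell along with them: 5 of 6 passed the test downward, and their sum was 242 to 369 CPM in control against 74.9 to 117 CPM in HSC-KO liver, while 5 of 5 KC markers fell, from a sum of 274 to 467 to 0.685 to 2.57 CPM. B cell markers summed to 15.2 to 22.4 CPM in control and 5.52 to 9.20 CPM in the HSC-KO livers, with 1 called lower, and stellate cell markers to 319 to 451 and 590 to 637 CPM, with 1 of 9 called higher. Of 12 EC markers 4 were called higher and 4 lower, with sums of 556 to 684 CPM in control against 489 to 533 CPM in HSC-KO liver. The part of these cells, among them the ECs that also make Tfec, in the Spi1 and Tfec values was not tested. At these marker shares, macrophage RNA would supply 11.8% of the Spi1 and 18.6% of the Tfec mean in control liver, 12.03% of Zeb2, 40.3% of Irf8 and 79.6% of Spic. Zeb2 ranged from 13.05 to 18.3 CPM in control against 7.88 to 11.8 CPM in HSC-KO liver (log2 fold change -0.68, SE 0.21, adjusted p = 0.20), and Irf8 from 11.0 to 11.7 and 7.59 to 11.4 CPM (log2 fold change -0.13, SE 0.18, adjusted p = 0.86). Spic was at 1.87, 3.44 and 1.14 CPM and then 0.761, 2.83 and 0.854 CPM (adjusted p = 0.85).

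The remaining members did not pass in whole liver. Cebpa, a main factor of hepatocytes, ranged from 380 to 497 CPM in control against 357 to 566 CPM in HSC-KO liver, Cebpb from 120 to 205 and 74.2 to 113 CPM (log2 fold change -0.57, SE 0.24, adjusted p = 0.38) and Bhlhe40 from 78.6 to 131 and 32.0 to 90.9 CPM (log2 fold change -0.72, SE 0.36, adjusted p = 0.49). Macrophage RNA would supply at most 0.48% of any of the 3. Bhlhe41, in contrast, was at 0.590, 0.241 and 0.117 CPM in control against 0.776, 0.552 and 0.570 CPM in HSC-KO liver (adjusted p = 0.60), where macrophages would supply 0.0177 and 0.696 CPM. The amount expected from HSC-KO macrophages alone was thus as large as the mean measured in their livers, 0.633 CPM.

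In the other direction, EC RNA was present in the macrophage libraries. By summed markers it was at 1.32 to 3.34% of the EC level in control, 0.209 to 0.642% in HSC-KO, 4.36 to 13.9% in Smad4FF and 10.0 to 13.1% in cKO macrophages. The median ratio over the 12 markers gave 0.115 to 1.94%, 0.0651 to 0.414%, 2.69 to 10.2% and 7.82 to 10.4% in these groups. The summed level of the 12 EC markers was 239 to 607, 31.1 to 95.8, 792 to 2520 and 1818 to 2386 CPM. At the shares by summed markers ECs would supply 7.57% of Tfec, 4.40% of Zeb2, 22.3% of Bhlhe40 and 23.2% of Bhlhe41 in Smad4FF macrophages. In cKO macrophages they would supply 14.5%, 5.31%, 10.3% and 1.00%. In control and HSC-KO macrophages the EC-supplied part of the group mean was at most 3.66% for every member, except Bhlhe40 in HSC-KO macrophages at 10.2%. In the single libraries of that group it was 209%, 35.6% and 6.16% of the measured Bhlhe40 level. The median ratio over markers gave 0.0109, 0.0120 and 0.0694 CPM in these libraries, and 4.94% of the group mean. In single control libraries it reached 5.11% for Bhlhe40 and 5.23% for Bhlhe41, and in Smad4FF replicate 1 it was 40.4% and 115%. For Bhlhe41 in that replicate, this was 0.286 CPM beside 0.2495 CPM measured, and 0.210 CPM by the median ratio. The fold changes of the 9 members in macrophages kept their sign when the supplied levels were subtracted.

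Markers of other cells also differed between the sorted macrophages. T and NK cell markers rose in HSC-KO macrophages (5 of 6, sum from 6.17 to 16.1 up to 40.8 to 132 CPM), and of the B cell markers Ighm and Cd79b rose while Ms4a1, Cd79a and Pax5 did not pass. The B cell list summed to 82.9 to 119 CPM in control, 541 to 763 CPM in HSC-KO, 128 to 196 CPM in Smad4FF and 276 to 326 CPM in cKO macrophages. Of 5 classical monocyte markers tested 3 rose and 1, Plac8, fell. The monocyte list summed to 98.5 to 194 CPM in control against 84.4 to 126 CPM in HSC-KO macrophages. Erythroid markers fell in HSC-KO macrophages (3 of 3 tested, sum from 25.7 to 42.3 down to 3.75 to 10.1 CPM), as did 3 of 9 hepatocyte markers. In Smad4 cKO macrophages no T and NK marker was called, Ighm and Cd79b rose, and Plac8 was the 1 monocyte marker called, downward. Monocyte markers summed to 139 to 179 CPM in Smad4FF against 13.6 to 28.3 CPM in cKO macrophages. In ECs of HSC-KO mice, only 2 of 7 classical monocyte markers, Plac8 and Ly6c2, could be tested, and both rose. That list summed to 9.76 to 11.6 CPM in control against 72.4 to 102 CPM in HSC-KO ECs. Chil3 and Vcan were at 3 counts or fewer in every HSC-KO EC library. Neutrophil markers summed to at most 5.21 CPM in all 12 macrophage libraries. In ECs they summed to at most 0.0462 CPM in control against 2.80 to 3.21 CPM in HSC-KO mice. The 1 neutrophil marker tested in ECs was called higher, and 6 of 7 were at 3 counts or fewer in every HSC-KO EC library. The part of these cells in the member values was not tested.

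The families around the members were taken from lists that include the members, and each count stands beside the 19.2% of all genes called in HSC-KO and the 7.74% called in cKO macrophages. Of 17 ETS factors in HSC-KO macrophages 3 rose and 4 fell, with a median log2 fold change of 0.17, and in cKO macrophages 0 rose and 2 fell, Spi1 and Erf, with a median of -0.03. Elk3 rose from a mean of 7.84 to 19.5 CPM (log2 fold change 1.35, SE 0.27, adjusted p = 0.0120) and Etv3 from 9.49 to 19.2 CPM (1.05, SE 0.22, adjusted p = 0.0152) in HSC-KO macrophages. Of 9 IRF genes 1 rose and 1 fell in HSC-KO and 0 rose and 2 fell in cKO macrophages. Irf7, the interferon-induced IRF, fell from 1988 to 658 CPM in HSC-KO (log2 fold change -1.56, SE 0.24, adjusted p = 0.00408) and from 2362 to 476 CPM in cKO macrophages (-2.30, SE 0.26, adjusted p = 0.00214), against the direction of Irf8.

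Tfec was the only 1 of 4 MiT/TFE genes called in either mutant. Among ZEB and SNAIL repressors, 0 of 4 tested in HSC-KO and 0 of 5 in cKO macrophages passed with edgeR, and 1 and 0 reached an unadjusted p below 0.05. Of 6 C/EBP genes 1, Cebpe, fell in HSC-KO macrophages, from a mean of 0.337 CPM, and 0 passed in cKO macrophages, where 2 had an unadjusted p below 0.05. Among 6 tested bHLH-Orange repressors, Bhlhe41 rose and Hey1, a target of ALK1 signalling, fell in both mutants, from 7.18 to 0.153 CPM in HSC-KO and from 3.29 to 0.412 CPM in cKO macrophages.

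Of 25 other macrophage transcription factors tested, beside the same 19.2% and 7.74% of all genes, 8 rose and 7 fell in HSC-KO and 5 rose and 6 fell in cKO macrophages, with medians of -0.04 and -0.05. Id3, an inhibitor of bHLH proteins induced by BMPs, fell from 1078 to 3.47 CPM (log2 fold change -8.23, SE 0.61) and from 2051 to 375 CPM (-2.44, SE 0.13). Nr1h3, the LXRα gene of KCs, fell from 874 to 43.4 CPM and from 1340 to 126 CPM. Runx3 rose from 3.94 to 260 CPM in HSC-KO macrophages, Mef2c from 4.18 to 177 CPM and from 12.2 to 71.3 CPM, and Pparg from 5.14 to 14.4 CPM in cKO macrophages, where Id2 fell from 98.6 to 31.2 CPM. Runx1 rose from 17.3 to 58.1 CPM in HSC-KO macrophages.

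Genes that depend on PU.1 were counted beside the 19.2% and 7.74% of all genes called in HSC-KO and cKO macrophages. Of 14, 0 rose and 3 fell in HSC-KO macrophages, Csf1r and Cd68 among them, with a median log2 fold change of -0.12, and 0 rose and 2 fell in cKO macrophages (Lyz2 and Cybb), with a median of -0.19. Lyz2, lysozyme, fell from 13238 to 5840 CPM in cKO macrophages (log2 fold change -1.16, SE 0.18, adjusted p = 0.00883). The haem and iron genes linked to Spic were counted beside the same shares. Of 6, 2 rose and 4 fell in HSC-KO macrophages, and 1 rose and 2 fell in cKO macrophages. Hmox1, haem oxygenase, fell from 1091 to 318 CPM and Slc40a1, the iron exporter ferroportin, from 2088 to 686 CPM in HSC-KO macrophages, while Vcam1, an adhesion molecule of red pulp macrophages, rose from 378 to 1595 CPM and, in cKO macrophages, from 352 to 752 CPM (adjusted p = 0.0488).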

How the data were processed

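RNA-seq of 24 mouse libraries in 8 groups of 3 was used, with groups taken from the labels, which name separate mice within each group, while 3 mice gave a library of each sorted cell type. The authors mapped reads with HISAT2 to mm10 and counted them per gene with featureCounts, and the deposited values are raw counts of 48820 entries in each of 4 tables. Versions, annotation release and strand setting are not given in the sources used here. Library totals were 60911527 to 110879155 counts, and a count of 0 allows up to 3 counts (counting error only).

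Each comparison was tested on the counts in edgeR 4.0.16 (R 4.3.3) with the quasi-likelihood test, filterByExpr (minimum count 10, minimum total 15), TMM scaling and Benjamini-Hochberg adjustment over all genes tested. Genes with an adjusted p below 0.05 were called, and an absolute log2 fold change over 1 was counted separately. Printed CPM use TMM factors over all 24 libraries, while fold changes come from the fit of each comparison. Alternatives were DESeq2 1.42.0, its size factors in edgeR, library size alone, other count filters, a replicate block, the Xist level as covariate, 1 fit of all 12 macrophage libraries and each library left out. On counts simulated for these comparisons, 4-fold changes were recovered at 100% in each of the 4 single comparisons and at 95% for the difference between the macrophage fold changes. For 2-fold changes the rates were 49 to 66% and 11%. The simulation gave all genes the same spread between mice and changed only well-counted genes. Its rates therefore do not hold for genes with few counts or a wide spread, such as Bhlhe40.

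The carried-over level of a gene was its mean in the source cells times the ratio of summed markers in the library to those in the source. The 9 members were all named, other genes of the fixed lists were named where they passed both thresholds and their mean log2 CPM reached 3 (at most 5 a list), and further ones after their values were seen. The members and lists were chosen with earlier results of these data known. Of the list genes, 2 whose symbol several entries share were left out. Promoter windows are from RefSeq (GRCm38.p6), and gene coordinates from GENCODE vM21 (GRCm38). A few listed genes are not reported here.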

Additional observations from a re-analysis of the deposited data

Results flagged for a closer look

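The log2 fold change of Irf8 upon loss of the ligands was 0.46 in macrophages and -1.57 in ECs, and that of Bhlhe40 was -2.77 in HSC-KO and 1.31 in Smad4 cKO macrophages. In both cases every library of the mutant lay on one side of its controls in the first setting and on the opposite side in the second. Groups did not overlap for 39.9% of all genes tested in HSC-KO macrophages, 29.5% in Smad4 cKO macrophages and 40.3% in ECs. For Bhlhe40 the test of the difference gave an adjusted p of 0.15 with edgeR, and of 0.000332 without HSC-KO replicate 3. Between ECs and macrophages, in the comparison added after seeing the data, the HSC-KO fold change was lower in ECs for Spic (by -2.78 on the log2 scale), Irf8 (-2.03), Zeb2 (-2.58), Cebpa (-1.90) and Bhlhe41 (-6.45), each with an adjusted p below 0.05 in the test of the difference. Macrophage RNA would supply 64.1% of the Spic mean in control ECs, where the macrophage markers summed to 37.5 to 52.1 CPM against 3.15 to 4.14 CPM in HSC-KO ECs, and its part in the Spic value was not tested.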

How the results depend on the processing

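Of 654 values recomputed, 571 kept their direction and side of the threshold, 38 no longer passed, 18 newly passed and 27 changed sign, all of results that passed in no setting. The number of members called in Smad4 cKO macrophages was 5 with DESeq2 and 5 with library size alone, and 1 to 3 with each library left out. In ECs it was 2 with library size alone and 2 to 3 with each library left out. In liver it was 1 with all genes that had a count, 1 with the replicate block, 1 with Xist as covariate and 0 to 1 with each library left out. For the difference between the macrophage fold changes it was 1 with DESeq2 and 0 to 1 with each library left out. The cause was not tested.

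The sign changed with library size alone for Zeb2 (0.08) and Cebpa (0.14) in Smad4 cKO macrophages, Cebpb in ECs (0.18), Cebpa in liver (-0.01) and the Irf8 difference between the macrophage fold changes (-0.04). It changed with Xist as covariate for Zeb2 in HSC-KO macrophages (-0.18), Cebpb in ECs (0.01) and Irf8 (0.03) and Cebpa (-0.13) in liver. With each library left out, the log2 fold change ranged from -0.07 to 0.27 for Zeb2 in HSC-KO macrophages, -0.15 to 0.03 for Zeb2 and -0.15 to 0.15 for Cebpa in Smad4 cKO macrophages, -2.15 to 0.40 for Cebpb and -0.20 to 0.53 for Bhlhe41 in ECs, -1.36 to 0.07 for Spic, -0.25 to 0.03 for Irf8 and -0.11 to 0.24 for Cebpa in liver, and -0.09 to 0.21 for the Irf8 difference. Library size alone moved the median log2 fold change of all genes by 0.16 in Smad4 cKO macrophages, 0.29 in ECs, -0.11 in liver and -0.12 for the difference.

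Same-numbered libraries showed little shared deviation over all genes (correlations of -0.107 to 0.162). With so few libraries per group, these values cannot show whether the numbers pair samples, for example by litter or batch. Such pairing was not tested. With the replicate block 2674 genes were called in HSC-KO macrophages, 799 in Smad4 cKO macrophages (1356 without it), 3150 in ECs, 296 in liver (484 without it) and 307 for the difference (534 without it). Under this block Spi1 (adjusted p = 0.0600) and Tfec (0.0820) in Smad4 cKO macrophages, Irf8 in ECs (0.0647) and Tfec in liver (0.101) no longer passed, while Cebpa in HSC-KO (0.0449) and Bhlhe40 in Smad4 cKO macrophages (0.0240) did, and Bhlhe40 in HSC-KO macrophages was at -4.53 (adjusted p = 0.0894). DESeq2 called 2094 genes in Smad4 cKO macrophages, 1078 in liver and 1362 for the difference. Of 72 levels, 19 could be supplied to 10% or more by carried-over RNA, and 17 with the median ratio over markers.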
